A study of Mus musculus with 18 samples.

Results

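The mitochondrial carriers of the Slc25 family were examined in tubules of the thick ascending limb (TAL) of mice with or without a conditional deletion of *Cldn10*, which encodes the tight junction protein claudin-10. All genes whose symbol is Slc25a followed by a number only were taken, which gave 47 of the 55401 genes of the deposited tables. Each of 18 pools held tubules dissected from the kidney of a distinct adult male mouse, either cortical (CTAL) or medullary (MTAL, from the inner stripe). The strain label is C57BL/6J, and the paper describes a largely C57BL/6 background. The conditional knock-out (cKO) mice were Cldn10 fl/fl; Ksp-Cre, where the Ksp-cadherin promoter drives Cre in the distal nephron and not in the TAL alone. The WT mice were Cldn10 fl/fl littermates without Cre, so that all groups carried the floxed alleles. There were 5 pools of WT CTAL, 5 of cKO CTAL, 5 of WT MTAL and 3 of cKO MTAL. cKO kidneys had calcium deposits in the outer medulla, which made the dissection of cKO MTAL difficult. Further cKO pools, 2 MTAL that failed quality control and 1 CTAL whose *Cldn10* was too high, had been left out by the study and were not analysed here, so that the cKO CTAL pools were in part chosen on *Cldn10*. WT CTAL replicate 1 carries conflicting labels, since its genotype label reads knock-out and its pool name WT; it was used as WT.

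Carriers of this family sit, with few exceptions, in the inner mitochondrial membrane. Each is a small protein of repeated domains that opens in turn to either side of the membrane and exchanges a nucleotide, a carboxylate, an amino acid, phosphate or a cofactor between the cytosol and the matrix. They thereby connect ATP synthesis, the citric acid cycle and the malate-aspartate shuttle with the rest of the cell. TAL cells hold many mitochondria, because sodium chloride uptake by NKCC2 is driven by the Na,K-ATPase and consumes much ATP.

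Total estimated counts ranged from 10824299 to 62339939 per pool. *Cldn10* lay between 151 and 295 CPM (read counts scaled to a common library size) in the 8 cKO pools and between 384 and 810 CPM in the 10 WT pools, and WT CTAL replicate 1, at 446 CPM, lay with the WT pools. The 6 TAL markers summed to at least 39825 CPM in every pool, against at most 379 CPM for 9 proximal tubule markers, 477 CPM for 6 endothelial markers and 811 CPM for 5 principal cell markers. The highest principal cell sum was that of cKO MTAL replicate 20. The TAL marker sums were 39825 to 48722.5 CPM in WT MTAL and 58286 to 64758 CPM in cKO MTAL. In CTAL they were 61546 to 68141 CPM in WT and 64016 to 72635 CPM in cKO. By the test described below, 3 of the 6 were higher in cKO MTAL than in WT MTAL. In CTAL 1 was higher in cKO, and 3 were lower in WT MTAL than in WT CTAL. Their part in the results was not tested. *Xist* exceeded 1 CPM in 7 pools, of which 4 were WT MTAL and none cKO MTAL, and reached 8.77 CPM at most. The Y chromosome genes *Ddx3y*, *Eif2s3y*, *Uty* and *Kdm5d* were expressed in all 18 pools, with *Ddx3y* at 23.6 to 38.7 CPM. The source of the *Xist* reads was not tested. In pools of tubules, fewer cells of a type and less RNA per cell cannot be told apart.

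Flanking sequences 5′ of the start site are given here for the 5 members that passed the test in at least 1 comparison, as these are the members that the results turn on. RefSeq entries on GRCm38.p6 were found for 36 of the 47 members, with 46 start sites in all. The 250 bases before the start are printed 5′ to 3′ in the direction of transcription, with GC boxes (GGGCGG) and CCAAT boxes (CCAAT) on either strand in capitals.
Slc25a17, chr15:81360766-81361015, minus strand: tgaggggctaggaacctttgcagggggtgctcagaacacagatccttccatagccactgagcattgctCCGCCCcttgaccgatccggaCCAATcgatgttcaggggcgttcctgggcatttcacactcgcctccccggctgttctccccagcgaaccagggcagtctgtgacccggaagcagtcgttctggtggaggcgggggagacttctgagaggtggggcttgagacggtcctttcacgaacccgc
Slc25a30, chr14:75787038-75787287, minus strand: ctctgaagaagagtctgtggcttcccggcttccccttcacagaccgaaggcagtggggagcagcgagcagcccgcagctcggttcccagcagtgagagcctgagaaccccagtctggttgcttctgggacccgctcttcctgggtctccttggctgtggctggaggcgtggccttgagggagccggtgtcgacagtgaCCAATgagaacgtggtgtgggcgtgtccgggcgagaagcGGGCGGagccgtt
Slc25a34, chr4:141623835-141624084, minus strand: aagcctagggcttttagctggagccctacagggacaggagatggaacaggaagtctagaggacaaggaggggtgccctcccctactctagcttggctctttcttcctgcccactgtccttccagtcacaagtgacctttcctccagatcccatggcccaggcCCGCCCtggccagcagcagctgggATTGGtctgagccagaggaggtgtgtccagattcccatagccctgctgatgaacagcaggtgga
Slc25a42, chr8:70212282-70212531, minus strand: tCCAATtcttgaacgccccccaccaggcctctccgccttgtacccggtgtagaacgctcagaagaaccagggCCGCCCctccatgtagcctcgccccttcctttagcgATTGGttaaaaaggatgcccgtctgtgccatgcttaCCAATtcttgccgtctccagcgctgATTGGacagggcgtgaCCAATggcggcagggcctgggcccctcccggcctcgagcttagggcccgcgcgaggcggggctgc
Slc25a48, chr13:56438105-56438354, plus strand: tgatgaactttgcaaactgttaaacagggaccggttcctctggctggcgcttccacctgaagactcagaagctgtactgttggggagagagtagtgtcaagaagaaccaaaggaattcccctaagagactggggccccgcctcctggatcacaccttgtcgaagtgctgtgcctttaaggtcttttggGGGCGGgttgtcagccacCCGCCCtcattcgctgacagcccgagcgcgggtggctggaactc
All of these 5 sequences hold a GC box, which occurred in 69.6% of the members' start sites and in 32.7% of the 32851 start sites of all genes. A CCAAT box occurred in 45.7% and 33.8%, respectively, and *Slc25a42* has 5 copies of it while *Slc25a48* has none in this window. The E-box CACGTG, searched in the same way, was found in 17.4% of the members' start sites and in 6.02% of all, and in none of these 5 windows. *Slc25a34* has 1 CpG dinucleotide in this window, whereas the other 4 sequences have 10 to 18 and the median was 11.5 over the members' start sites and 6 over all start sites. These matches describe the letters of the windows only. On GRCm38, *Slc25a17* spans chr15:81318911-81360812 (minus strand), *Slc25a30* chr14:75760117-75787037 (minus strand), *Slc25a34* chr4:141618824-141623821 (minus strand), *Slc25a42* chr8:70184340-70212305 (minus strand) and *Slc25a48* chr13:56438355-56474239 (plus strand). None of these genes overlaps another annotated gene. The windows of *Slc25a17* and *Slc25a42* reach into the gene spans, since the RefSeq start used lies inside them.

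Levels are first compared between genes, in TPM, which are read counts corrected for transcript length and scaled to a common total. Of the 47 members, 42 had counts in every pool, 6 had a mean above 100 TPM over the 18 pools, 19 lay between 10 and 100 TPM and 17 between 1 and 10 TPM. *Slc25a2*, *Slc25a31* and *Slc25a41* had counts but less than 1 TPM, and *Slc25a18* and *Slc25a54* had none. *Slc25a31* is the ADP/ATP carrier of the testis. The family summed to 3921 ± 213 TPM in WT CTAL (SD, n = 5), 4198 ± 373 in cKO CTAL (n = 5), 3609 ± 298 in WT MTAL (n = 5) and 3886 ± 285 in cKO MTAL (n = 3). These sums overlapped between all groups and were not tested.

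*Slc25a5*, the ADP/ATP carrier ANT2, led the family with a mean of 1358 TPM and a range of 1122 to 1648 TPM over the pools. The phosphate carrier *Slc25a3*, which supplies the phosphate for ATP synthesis, followed with 828.7 TPM. These 2 members made up 56.0% of the family's TPM. *Slc25a4*, the ADP/ATP carrier ANT1, had 294.5 TPM and the glutathione carrier *Slc25a39* 290.0 TPM, and their ranges over the pools overlapped. The oxoglutarate/malate carrier *Slc25a11* had 131 TPM and the aspartate/glutamate carrier *Slc25a12* 116 TPM, again with overlapping ranges. Both carriers belong to the malate-aspartate shuttle. *Slc25a30*, known as kidney mitochondrial carrier protein 1, had 89.2 TPM, the calcium-dependent ATP-Mg/phosphate carrier *Slc25a23* 83.8 TPM and the peroxisomal carrier of coenzyme A, FAD and NAD *Slc25a17* 73.7 TPM. The first 10 members held 85.3% of the family's TPM. The other members that passed a test below were lower, with 13.02 TPM for the coenzyme A carrier *Slc25a42*, 6.35 TPM for the choline carrier *Slc25a48* and 5.68 TPM for *Slc25a34*, whose substrate is not settled.

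**Figure D1:**
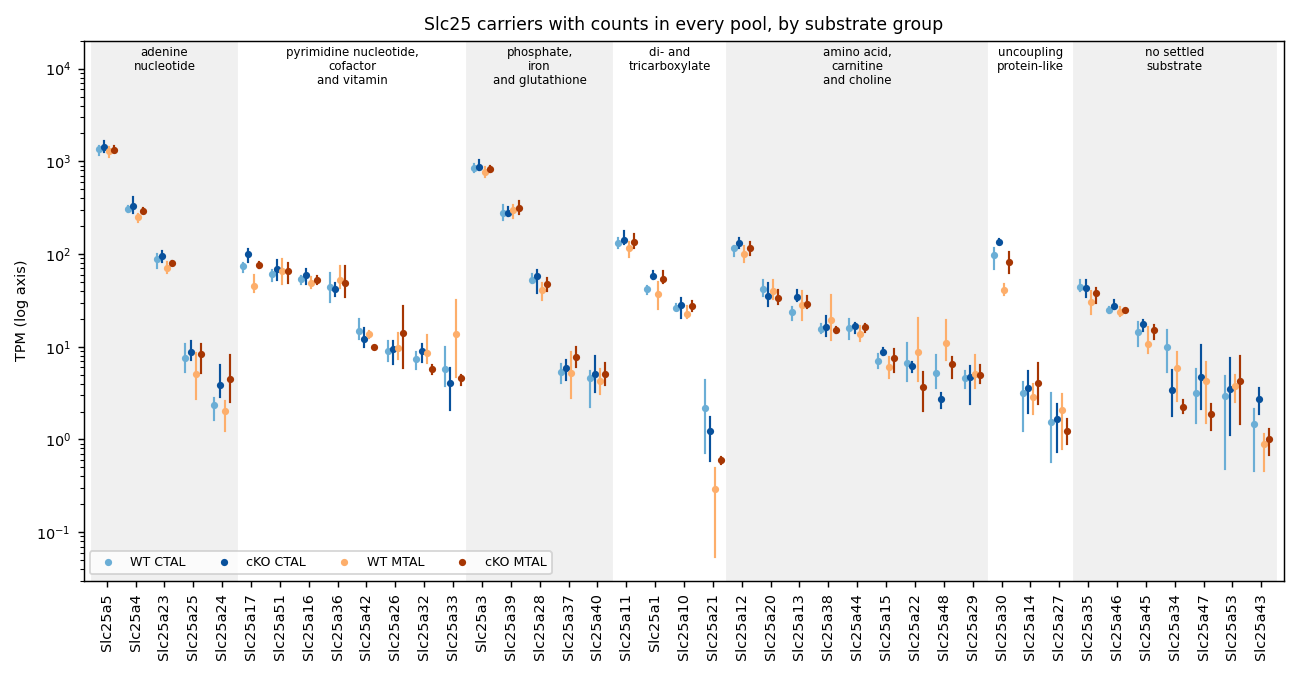
TPM (log axis) of Slc25 members with counts in every pool, ordered by substrate group and by mean level within it. Points are group means and bars run from the lowest to the highest pool (n = 5, 5, 5 and 3 for WT CTAL, cKO CTAL, WT MTAL and cKO MTAL). *Slc25a5* and *Slc25a3* stand above the other members in every group.

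Between close paralogues, the prevailing member was the same in every group. The ratio of *Slc25a5* to *Slc25a4* in TPM was 4.44 ± 0.37 in WT CTAL, 4.42 ± 0.42 in cKO CTAL, 5.18 ± 0.49 in WT MTAL (SD, n = 5 each) and 4.58 ± 0.58 in cKO MTAL (n = 3). The deposited tables also hold a pseudogene of *Slc25a5*, and how the counting treated reads shared with it is not given in the sources used here. *Slc25a12* exceeded *Slc25a13*, the aspartate/glutamate carrier of the liver, by mean ratios between 3.81 and 4.96. *Slc25a39* exceeded *Slc25a40*, its paralogue in glutathione transport, by mean ratios between 59.9 and 71.0. The mitoferrin *Slc25a28* exceeded *Slc25a37*, the mitoferrin of erythroid cells, by mean ratios between 6.30 and 10.03. *Slc25a35*, the closest relative of *Slc25a34*, exceeded it 5.32 ± 2.89 times in WT CTAL, 14.7 ± 6.05 times in cKO CTAL, 6.39 ± 3.95 times in WT MTAL and 17.4 ± 5.42 times in cKO MTAL. The last ratios move with the values of *Slc25a34* that are given below.

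The effect of the *Cldn10* deletion was first examined in MTAL. Levels between pools are given in CPM on TMM-normalized library sizes, and a gene passed when its Benjamini-Hochberg adjusted p over all genes tested with the quasi-likelihood test of edgeR was under 0.05. Compared to WT MTAL, *Slc25a17* and *Slc25a30* were more expressed and *Slc25a34* and *Slc25a42* less expressed in cKO MTAL. Thus 2 of the 40 members tested were higher (4.44% of all 12060 genes tested were) and 2 were lower (2.57% of all genes). The fall of *Slc25a34* was known when the family was chosen. Without it, 1 of 39 members was lower and 0 of the members that passed were past a log2 fold change of 1, which 3.74% of all genes were. The median log2 fold change was -0.05 over the members and 0.00 over all genes. The 7 members that were not tested, for too few counts, were *Slc25a2*, *Slc25a18*, *Slc25a21*, *Slc25a31*, *Slc25a41*, *Slc25a43* and *Slc25a54*.

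*Slc25a17* encodes the carrier that brings coenzyme A, FAD and NAD into peroxisomes, where they serve fatty acid oxidation. It had 80.6, 87.0 and 80.7 CPM in cKO MTAL replicates 16, 18 and 20, and 46.6, 61.4, 51.8, 59.9 and 47.9 CPM in WT MTAL replicates 11, 13, 15, 17 and 19. All cKO MTAL pools lay above all WT MTAL pools. The mean was 82.8 ± 3.67 CPM (SD, n = 3) against 53.5 ± 6.83 CPM (n = 5), a log2 fold change of 0.63 with a standard error (SE) of 0.13 and an adjusted p of 0.00975 by the edgeR test. This call held when any pool was left out, with an adjusted p of at most 0.029.

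*Slc25a30* resembles the uncoupling proteins in sequence. It had 128, 212 and 127 CPM in cKO MTAL replicates 16, 18 and 20, and 90.2, 88.7, 116, 103 and 93.9 CPM in WT MTAL replicates 11, 13, 15, 17 and 19. The groups did not overlap, but replicate 18 stood well above the other cKO MTAL pools. The log2 fold change was 0.67 (SE 0.16, adjusted p 0.0197 by edgeR), and it was 0.39 with an adjusted p of 0.0966 without cKO MTAL replicate 18. Without WT MTAL replicate 19 the adjusted p was 0.0541. Proximal tubule markers were higher than in WT MTAL in cKO MTAL replicates 18 and 20. They summed to 108, 379 and 247 CPM in cKO MTAL replicates 16, 18 and 20, and to 65.4 to 127 CPM in WT MTAL. Replicate 16 thus lay within the WT MTAL range of these sums. Of the 9 markers 4 could be tested and 2 passed, both higher in cKO MTAL, with a median log2 fold change of 1.04 over the 4, and their part in these results was not tested.

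For *Slc25a34*, whose fall was known in advance, the values are a description. It had 5.88, 3.85 and 4.68 CPM in cKO MTAL replicates 16, 18 and 20, and 17.4, 5.45, 14.8, 21.2 and 9.67 CPM in WT MTAL replicates 11, 13, 15, 17 and 19. WT MTAL replicate 13 lay within the cKO MTAL range and the other 4 WT MTAL pools above it. The log2 fold change was -1.51 (SE 0.41, adjusted p 0.0351 by edgeR), while an exact two-sided Mann-Whitney test gave p = 0.0714, where 0.0357 is the smallest that 3 against 5 pools allow. The adjusted p reached up to 0.103 when 1 pool was left out and was over 0.05 in 6 of 8 such fits. It was 0.131 with limma on TPM. *Xist* exceeded 1 CPM in 4 of the 5 WT MTAL and in 0 of the 3 cKO MTAL pools, and with a term for pools with *Xist* the adjusted p was 0.159.

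*Slc25a42* carries coenzyme A into the mitochondrial matrix in exchange for adenine nucleotides. It had 24.2, 22.9 and 23.7 CPM in cKO MTAL replicates 16, 18 and 20, and 36.6, 33.0, 30.5, 38.1 and 36.8 CPM in WT MTAL replicates 11, 13, 15, 17 and 19. The groups did not overlap, and the log2 fold change was -0.56 (SE 0.16, adjusted p 0.0472 by edgeR). The call was lost whenever a pool was left out, with adjusted p between 0.0607 and 0.117. The adjusted p was 0.22 with limma on TPM and 0.0591 with the term for *Xist*. The 6 endothelial markers moved with these comparisons. They summed to 144 to 243 CPM in cKO MTAL and 256 to 398 CPM in WT MTAL, 4 of the 6 passed the test, all lower, and their part in the results was not tested.

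Other abundant members did not pass the test in MTAL. The log2 fold change was -0.15 for *Slc25a5* (SE 0.10), -0.01 for *Slc25a3* (SE 0.10), 0.05 for *Slc25a4* (SE 0.11), -0.10 for *Slc25a39* (SE 0.13), 0.11 for *Slc25a11* (SE 0.13), -0.05 for *Slc25a12* (SE 0.11) and 0.06 for *Slc25a23* (SE 0.11). By substrate group, where 7.01% of all genes passed in either direction, 0 of 5 adenine nucleotide carriers tested passed, 0 of 5 carriers of phosphate, iron and glutathione, 0 of 3 of di- and tricarboxylates, and 0 of 9 of amino acids, carnitine and choline. The group of pyrimidine nucleotide, cofactor and vitamin carriers had 2 of 9 (*Slc25a17* and *Slc25a42*), the uncoupling protein-like carriers 1 of 3 (*Slc25a30*) and the members with no settled substrate 1 of 6 (*Slc25a34*).

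Separation of the groups was counted apart from the test. In CPM, 4 members of the 40 were higher in every cKO MTAL pool than in any WT MTAL pool (6.79% of all genes were) and 5 were lower (7.65% of all genes). Beside *Slc25a17* and *Slc25a30*, the higher ones were the citrate carrier *Slc25a1*, with 49.5 ± 8.31 CPM against 34.7 ± 4.33 CPM and an adjusted p of 0.065 by edgeR, and *Slc25a45*, with 23.1 ± 4.24 CPM against 16.03 ± 1.58 CPM and an adjusted p of 0.124. Beside *Slc25a42*, the lower ones were *Slc25a5*, the NAD carrier *Slc25a51* (adjusted p 0.108), the choline carrier *Slc25a48* (adjusted p 0.0617) and the pyrimidine nucleotide carrier *Slc25a33*. *Slc25a33* had the lowest log2 fold change of the members, -1.71 with an SE of 0.50 and an adjusted p of 0.0503 by edgeR. *Slc25a1*, *Slc25a45*, *Slc25a51* and *Slc25a33* are named after their values were seen. With levels scaled to total counts, the separation of *Slc25a5* and *Slc25a51* was lost. Then 4 members were higher (8.94% of all genes) and 3 lower (5.2% of all genes). In TPM, 3 members were higher (*Slc25a4*, *Slc25a17* and *Slc25a30*, against 10.8% of all genes) and 2 were lower (*Slc25a32* and *Slc25a42*, against 2.07% of all genes).

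**Figure D2:**
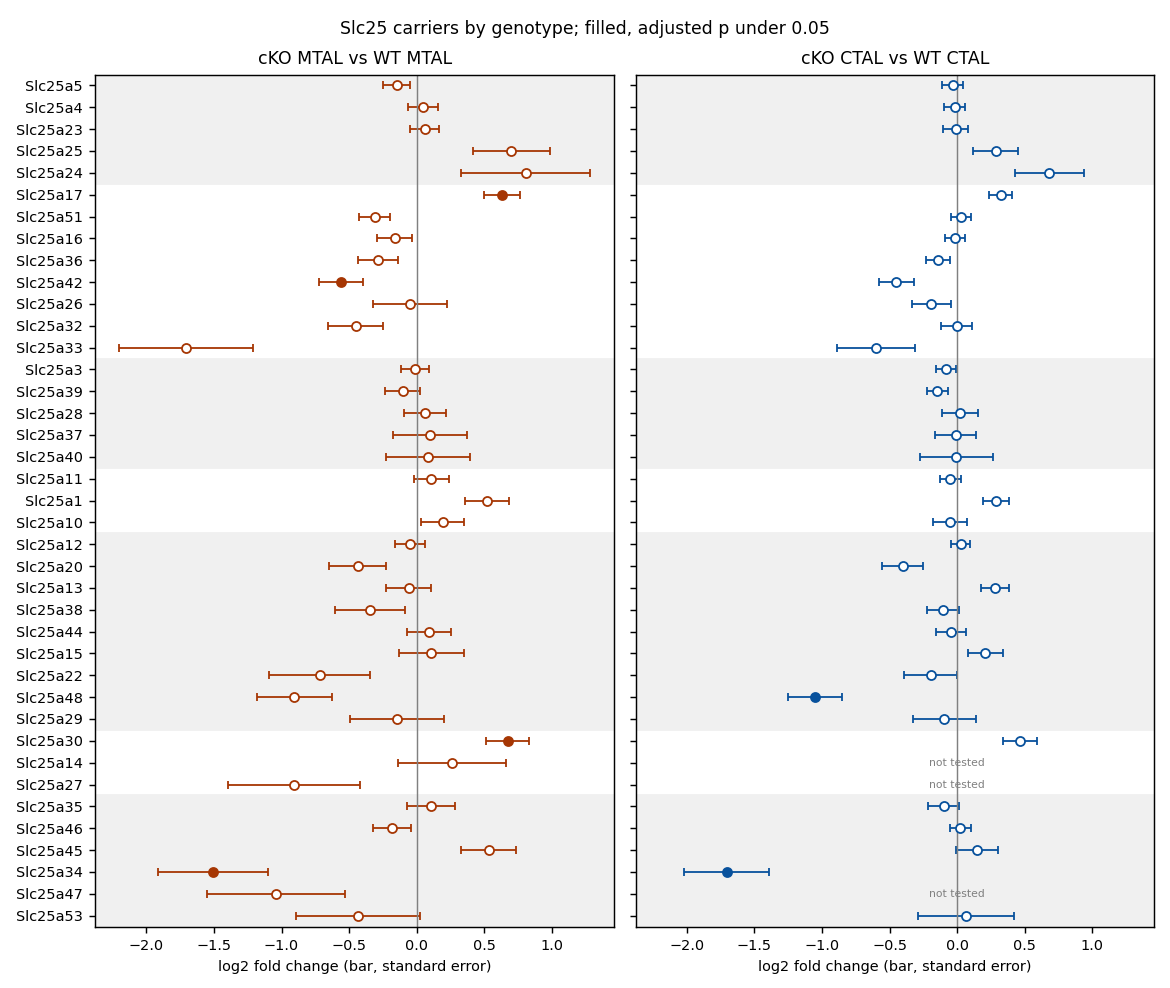
Log2 fold change of cKO against WT in MTAL (left) and CTAL (right) for members tested in either segment, ordered by substrate group as shaded bands, with standard errors as bars. Filled points passed the test (*Slc25a17*, *Slc25a30*, *Slc25a34* and *Slc25a42* in MTAL, *Slc25a34* and *Slc25a48* in CTAL).

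In CTAL, *Slc25a34* and *Slc25a48* were less expressed in cKO than in WT, and no member passed in the other direction. Thus 2 of 37 members tested were lower (0.564% of all 11702 genes tested were) and 0 were higher (0.658% of all genes), and both were past a log2 fold change of 1 (0.47% of all genes). Without *Slc25a34*, 1 of 36 members was lower and past this fold change. By the likelihood ratio test of DESeq2 5 members passed, where 3.08% of all genes did, and 9 members had an unadjusted p under 0.05, where 11.8% of all genes did. The median log2 fold change was -0.02 over the members and 0.00 over all genes.

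*Slc25a34* had 3.91, 5.22, 11.3, 5.94 and 7.87 CPM in cKO CTAL replicates 21, 2, 4, 7 and 9, and 11.1, 15.3, 21.5, 29.1 and 34.3 CPM in WT CTAL replicates 10, 1, 22, 3 and 8. The highest cKO CTAL pool, replicate 4, lay just above the lowest WT CTAL pool, replicate 10, and all other pools were separated. The means were 6.85 ± 2.88 CPM and 22.3 ± 9.54 CPM (SD, n = 5 each), with a log2 fold change of -1.71 (SE 0.32, adjusted p 0.0151 by edgeR). Without WT CTAL replicate 1 the log2 fold change was -1.82 with an adjusted p of 0.0111. The call held in all 10 fits that left out a pool, but not with limma on TPM (log2 fold change -1.3, adjusted p 0.0545). As in MTAL, this fall was known when the family was chosen, so that these values are a description.

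*Slc25a48* carries choline into mitochondria, where it is oxidized to betaine. It had 5.61, 7.74, 6.03, 7.21 and 7.11 CPM in cKO CTAL replicates 21, 2, 4, 7 and 9, and 20.4, 10.7, 16.4, 10.1 and 11.8 CPM in WT CTAL replicates 10, 1, 22, 3 and 8. All cKO CTAL pools lay below all WT CTAL pools. The log2 fold change was -1.05 (SE 0.20, adjusted p 0.0176 by edgeR), and -1.14 with an adjusted p of 0.0135 without WT CTAL replicate 1. The adjusted p was over 0.05 in 3 of 10 fits that left out a pool, with 0.0594 as the highest, and 0.112 with limma on TPM. In MTAL, *Slc25a48* had 18.4, 19.1 and 11.4 CPM in cKO replicates 16, 18 and 20, and 24.0, 49.8, 31.7, 26.8 and 20.9 CPM in WT replicates 11, 13, 15, 17 and 19, again without overlap, but the log2 fold change of -0.90 (SE 0.28, adjusted p 0.0617 by edgeR) did not pass. It passed with DESeq2 (adjusted p 0.0229), without the filter on low counts (0.0107), in 1 fit of all groups (0.0249) and with the term for *Xist* (0.0274).

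In CTAL the groups were also separated for *Slc25a17* and *Slc25a30*, without a pass. Each stayed without a pass in all 10 fits that left out a pool and under 6 of 7 other alternatives, and passed under the remaining alternative. *Slc25a17* had 106, 96.4, 119, 115 and 114 CPM in cKO CTAL replicates 21, 2, 4, 7 and 9 and 89.6, 95.9, 76.0, 80.6 and 94.5 CPM in WT CTAL replicates 10, 1, 22, 3 and 8 (log2 fold change 0.32, SE 0.09, adjusted p 0.0929 by edgeR). *Slc25a30* had 263, 288, 247, 272 and 233 CPM in cKO CTAL replicates 21, 2, 4, 7 and 9 and 141, 219, 212, 144 and 220 CPM in WT CTAL replicates 10, 1, 22, 3 and 8 (log2 fold change 0.47, SE 0.13, adjusted p 0.102). With *Slc25a48*, these were the members whose groups did not overlap, 2 higher (1.85% of all genes) and 1 lower (1.24% of all genes). In TPM, 5 members were higher (4.48% of all genes), the others being *Slc25a1*, *Slc25a13* and *Slc25a24*, and 1 was lower (0.308% of all genes). *Slc25a42* had 27.9 ± 2.46 CPM in cKO CTAL and 37.7 ± 7.62 CPM in WT CTAL (adjusted p 0.123). The endothelial markers summed to 177 to 267 CPM in cKO CTAL and 214 to 477 CPM in WT CTAL, and their part in these values was not tested.

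The genotype effects were then compared between the segments by the interaction term in 1 fit of all pools. No member of the 40 tested passed by edgeR, and 0 passed by DESeq2, while 2 were at an unadjusted p under 0.05, where 14.7% of all genes were. Over all 12586 genes, 0.262% had a higher and 0.0238% a lower genotype effect in MTAL than in CTAL. The difference of the log2 fold changes, MTAL minus CTAL, was 0.30 for *Slc25a17* (SE 0.15), 0.19 for *Slc25a30* (SE 0.22), 0.18 for *Slc25a34* (SE 0.53), -0.13 for *Slc25a42* (SE 0.19) and 0.13 for *Slc25a48* (SE 0.35). The effects that passed in 1 segment were therefore not shown to differ from those in the other.

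**Figure D3:**
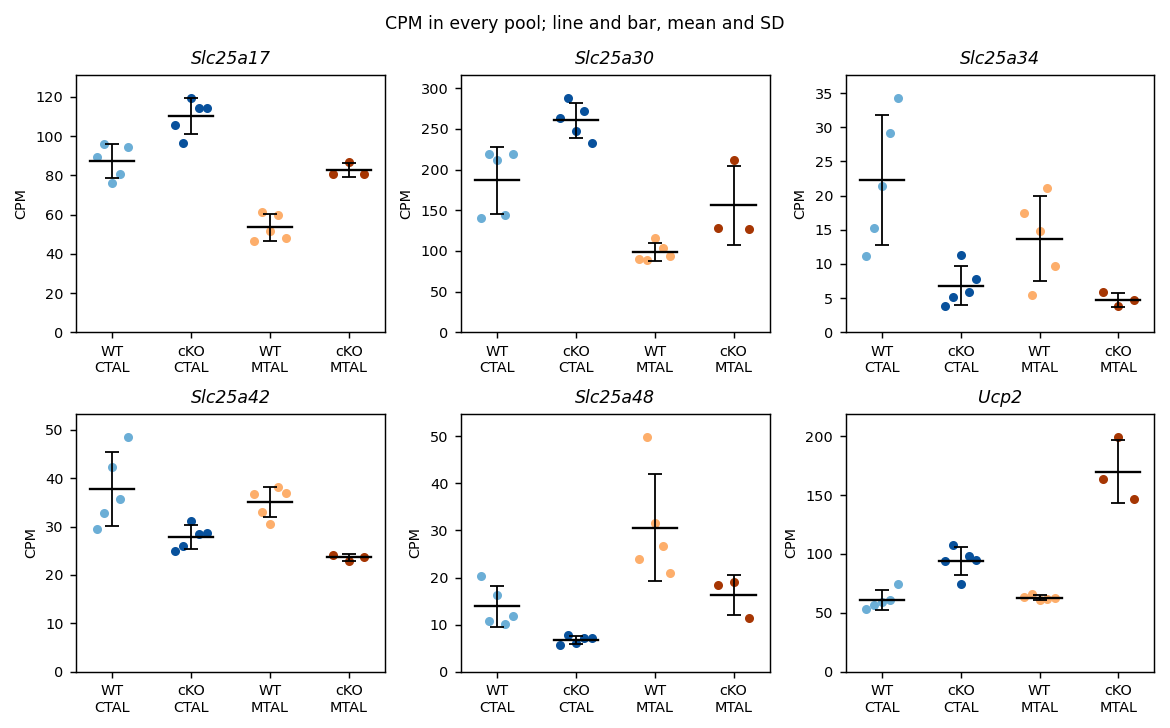
CPM of the 5 members that passed the test in at least 1 comparison, and of *Ucp2*, in every pool (points), with the group mean and SD (n = 5, 5, 5 and 3). The group means of *Slc25a17* and *Slc25a30* lie higher in CTAL than in MTAL and, within each segment, in cKO than in WT, whereas those of *Slc25a48* lie higher in MTAL and, within each segment, in WT; not all of these differences passed.

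Differences between the segments were examined in WT mice. This comparison shares the WT MTAL pools with the comparison of genotypes in MTAL and the WT CTAL pools with that in CTAL. *Slc25a30* and *Slc25a17* were lower and *Slc25a48* was higher in WT MTAL, so that 1 of 39 members tested was higher (2.76% of all 11650 genes tested were) and 2 were lower (4.1% of all genes). Only *Slc25a48* was past a log2 fold change of 1 (2.32% of all genes were). These 3 members were also those whose groups did not overlap, 1 higher (3.06% of all genes) and 2 lower (4.31% of all genes). With levels scaled to total counts, *Slc25a48* overlapped.

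For *Slc25a30* the mean was 98.3 ± 11.2 CPM in WT MTAL and 187 ± 41.0 CPM in WT CTAL (SD, n = 5 each), a log2 fold change of -0.93 (SE 0.13, adjusted p 0.000282 by edgeR). For *Slc25a17* it was 53.5 ± 6.83 CPM and 87.3 ± 8.70 CPM, a log2 fold change of -0.70 (SE 0.10, adjusted p 0.000339). *Slc25a48* had 30.6 ± 11.4 CPM in WT MTAL and 13.9 ± 4.40 CPM in WT CTAL, a log2 fold change of 1.14 (SE 0.24, adjusted p 0.00679). All 3 calls held in each of the 10 fits that left out a pool, WT CTAL replicate 1 included, but that of *Slc25a48* did not hold with limma on TPM (adjusted p 0.0728). Among the thin limb markers, which summed to 776 to 1051 CPM in WT MTAL and 431 to 698 CPM in WT CTAL, 2 of 3 tested passed, both higher. Of the 6 TAL markers 3 passed, all lower, and of 4 principal cell markers tested 1 did, also lower. Of the 5 immune cell markers 1 was higher and 2 were lower. No proximal tubule or endothelial marker passed. The part of all these markers in these results was not tested.

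*Slc25a34* and *Slc25a42* did not pass between the WT segments. The log2 fold change was -0.70 for *Slc25a34* (SE 0.34, adjusted p 0.276) and -0.11 for *Slc25a42* (adjusted p 0.733). The median log2 fold change was -0.05 over the members and 0.02 over all genes. In this comparison 6.87% of all genes passed in either direction. None of the 5 adenine nucleotide carriers, 5 of phosphate, iron and glutathione, 3 of di- and tricarboxylates and 6 without settled substrate passed. Of carriers of amino acids, carnitine and choline 1 of 9 passed (*Slc25a48*), and of pyrimidine nucleotides, cofactors and vitamins 1 of 9 (*Slc25a17*). Of the uncoupling protein-like carriers 1 of 2 passed (*Slc25a30*).

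In cKO mice, *Slc25a48* was more expressed and *Slc25a30* less expressed in MTAL than in CTAL. Thus 1 of 39 members was higher (1.12% of all 12044 genes tested were) and 1 was lower (0.631% of all genes), and *Slc25a48* alone was past a log2 fold change of 1 (0.938% of all genes). *Slc25a48* had 16.3 ± 4.24 CPM in cKO MTAL (SD, n = 3) and 6.74 ± 0.89 CPM in cKO CTAL (n = 5), a log2 fold change of 1.3 (SE 0.22, adjusted p 0.0112 by edgeR). The adjusted p was 0.0856 with limma on TPM and 0.0631 without cKO MTAL replicate 16. *Slc25a30* had 156 ± 48.7 CPM and 261 ± 21.4 CPM, a log2 fold change of -0.71 (SE 0.16, adjusted p 0.0468), and this call was lost in 7 of 8 fits that left out a pool, with an adjusted p of up to 0.164, and with limma (0.0912). The 4 thin limb markers all passed, higher in cKO MTAL, and summed to 691 to 758 CPM there and 416 to 501 CPM in cKO CTAL, and their part in these results was not tested. *Slc25a17* had 82.8 ± 3.67 CPM and 110.1 ± 9.14 CPM without a pass (log2 fold change -0.38, adjusted p 0.0838). It stayed without a pass in 8 of 8 fits that left out a pool and under 4 of 7 other alternatives, and passed under the rest.

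Separation was also counted between the cKO segments, where *Slc25a30* and *Slc25a48* had passed the test. In CPM, 8 of 39 members were lower in every cKO MTAL pool than in any cKO CTAL pool (5.98% of all genes were), and 1 was higher (4.15% of all genes). The 8 were *Slc25a12*, *Slc25a16*, *Slc25a17*, *Slc25a23*, *Slc25a30*, *Slc25a32*, *Slc25a42* and *Slc25a46*, of which *Slc25a16*, *Slc25a32* and *Slc25a46* are named after their values were seen. *Slc25a16* is linked to mitochondrial coenzyme A, *Slc25a32* carries folate and FAD, and *Slc25a46* acts in the outer membrane on mitochondrial shape. The aspartate/glutamate carrier *Slc25a12* had 227 ± 16.9 CPM in cKO MTAL and 261 ± 7.76 CPM in cKO CTAL (log2 fold change -0.16, adjusted p 0.380 by edgeR), and *Slc25a32* 18.8 ± 0.57 CPM and 28.3 ± 4.16 CPM (log2 fold change -0.55, adjusted p 0.0943). The count of lower members was 4 with levels scaled to total counts (4.39% of all genes) and 5 in TPM (3.94% of all genes). The median log2 fold change was -0.11 over the members and 0.03 over all genes.

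**Figure D4:**
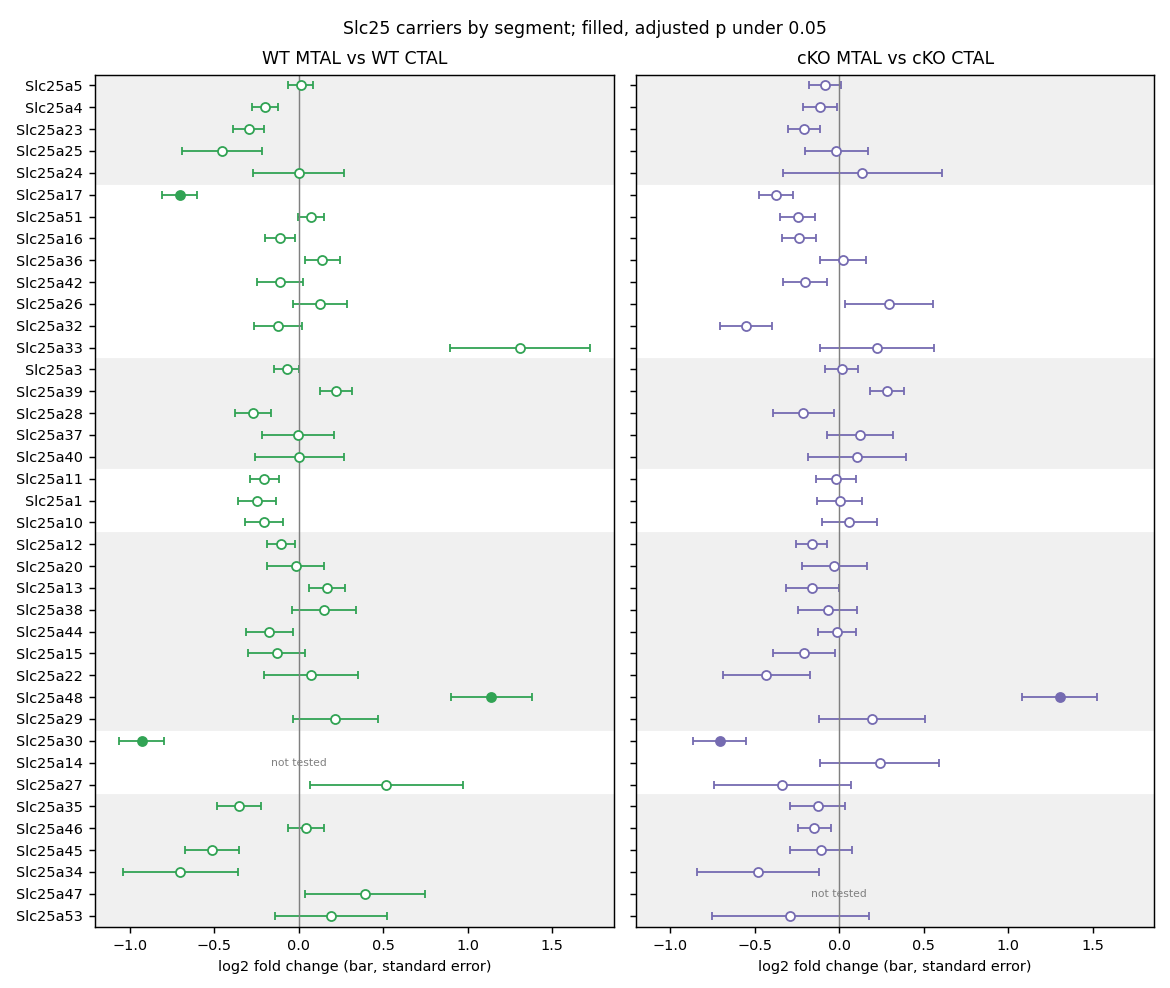
Log2 fold change of MTAL against CTAL in WT (left) and cKO mice (right) for members tested in either genotype, ordered by substrate group as shaded bands, with standard errors as bars. Filled points passed the test (*Slc25a17*, *Slc25a30* and *Slc25a48* in WT, *Slc25a30* and *Slc25a48* in cKO).

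The closest relatives outside the naming rule are the uncoupling proteins *Ucp1*, *Ucp2* and *Ucp3* and the outer membrane proteins *Mtch1* and *Mtch2*. *Ucp1*, the uncoupling protein of brown fat, and *Ucp3*, that of muscle, were too low to be tested. *Ucp2*, which is expressed in many tissues and exports C4 metabolites from mitochondria, was more expressed in cKO than in WT in both segments. It had 164, 199 and 146 CPM in cKO MTAL replicates 16, 18 and 20, and 63.8, 66.3, 60.6, 61.95 and 62.3 CPM in WT MTAL replicates 11, 13, 15, 17 and 19. The lowest cKO MTAL pool lay far above the highest WT MTAL pool, and the log2 fold change was 1.44 (SE 0.12, adjusted p 7.52e-06 by edgeR). In CTAL it had 93.7, 108, 74.5, 98.1 and 95.3 CPM in cKO replicates 21, 2, 4, 7 and 9, and 53.0, 56.9, 58.8, 60.8 and 74.5 CPM in WT replicates 10, 1, 22, 3 and 8. The lowest cKO CTAL pool and the highest WT CTAL pool met, and the log2 fold change was 0.62 (SE 0.11, adjusted p 0.0112), or 0.59 with an adjusted p of 0.0207 without WT CTAL replicate 1. With that pool counted as cKO, the call was lost (adjusted p 0.164 by edgeR).

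The genotype effect on *Ucp2* was larger in MTAL than in CTAL by 0.81 on the log2 scale (SE 0.16, adjusted p 0.0314 for the interaction by edgeR), but this call was lost in 4 of 18 fits that left out a pool, with an adjusted p of up to 0.0581. It was also lost with limma on TPM (0.252), with WT CTAL replicate 1 counted as cKO (0.0582) and with the term for *Xist* (0.0618). *Ucp2* had 63.0 ± 2.16 CPM in WT MTAL and 60.8 ± 8.16 CPM in WT CTAL (adjusted p 0.842), and was higher in MTAL than in CTAL of cKO mice (log2 fold change 0.89, SE 0.13, adjusted p 0.00413, but 0.162 with limma on TPM). It lies at chr7:100493337-100502020 (plus strand, GRCm38), and its exons overlap those of *Dnajb13* on the opposite strand, so that reads of both may be mixed if the counting did not use the strand. *Mtch1* and *Mtch2* passed in no comparison, with log2 fold changes of 0.26 (SE 0.12) and -0.03 (SE 0.13) for cKO against WT in MTAL.

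Lists of other genes of mitochondrial transport and content were tested beside the family. None of the 16 genes of the import machinery for carriers passed by edgeR in any comparison, where 0.286% to 7.01% of all genes did. Their median log2 fold changes lay between -0.04 and 0.07. Of 17 genes of mitochondrial content, 1 passed, between cKO MTAL and WT MTAL, where 7.01% of all genes did. This was *Ppargc1a*, a coactivator of mitochondrial biogenesis, which was lower in cKO MTAL (273 ± 42.1 CPM, against 430 ± 77.4 CPM in WT MTAL, log2 fold change -0.65, SE 0.15, adjusted p 0.0167). The adjusted p was 0.274 with limma on TPM and 0.087 without cKO MTAL replicate 20. Of 8 genes of mitochondrial calcium transport tested, *Slc8b1*, the sodium/calcium exchanger of mitochondria, was lower in cKO MTAL (21.3 ± 1.64 CPM, against 33.1 ± 5.08 CPM in WT MTAL, log2 fold change -0.63, SE 0.18, adjusted p 0.0482). It was higher in MTAL than in CTAL of WT mice, with 21.04 ± 3.63 CPM in WT CTAL (log2 fold change 0.65, SE 0.15, adjusted p 0.0114). Thus 1 of the 8 passed in each of these comparisons, where 7.01% and 6.87% of all genes did. The first of these calls was lost in 7 of 8 fits that left out a pool, and both with limma on TPM (adjusted p 0.467 and 0.163). Of the 7 genes of the pyruvate carrier and the sideroflexins, *Mpc1*, a subunit of the pyruvate carrier, was lower in MTAL than in CTAL of WT mice (247 ± 14.2 against 309 ± 26.3 CPM, log2 fold change -0.33, SE 0.08, adjusted p 0.0178). So was *Sfxn1*, a carrier of serine (14.0 ± 2.66 against 21.2 ± 3.72 CPM, log2 fold change -0.60, SE 0.17, adjusted p 0.047). The call of *Sfxn1* was lost in 7 of 10 fits that left out a pool, with an adjusted p of up to 0.137, and that of *Mpc1* in 1 of them, without WT CTAL replicate 8 (0.0517). With the term for *Xist* the adjusted p of *Mpc1* was 0.12, and in 1 fit of all groups it was 0.0523. Without the filter on low counts it was 0.0627 for *Mpc1* and 0.0849 for *Sfxn1*, which also did not pass with limma on TPM (0.0557) or with WT CTAL replicate 1 counted as cKO (0.112). Thus 2 of the 7 genes of this list passed between the WT segments, where 6.87% of all genes did, and none passed between genotypes.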

How the data were processed

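RNA of 18 pools was sequenced by the authors as poly-A, strand-specific, paired-end libraries, mapped to mm10 and quantified per gene with DRAGEN and a gencode annotation, with FastQC and Picard for quality control. Trimming is given as fastp in the paper and as Trimmomatic in the submitters' processing notes. Strand use and the treatment of multiply mapped reads in counting are not given in the sources used here. As estimated counts, the authors deposited values without normalization, which hold decimals for some genes where whole counts had been assumed, and these were rounded. The TPM values deposited by the authors correct for length and depth. All columns were mapped to pools.

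Groups were compared in R (4.3.3) with edgeR (4.0.16), by its quasi-likelihood F test with TMM factors, after keeping genes that reached 3 CPM in 5 or more pools, or in 3 or more where cKO MTAL entered. p-values were adjusted by Benjamini-Hochberg over all genes tested. CPM are on TMM library sizes. Each comparison used its own groups, and the interaction all pools. The self-test used counts simulated with the same relative spread for all genes and with absolute log2 folds of at least 1. It recovered the folds that were put in. Smaller folds, which many of the calls have, and more variable genes were not simulated. Alternatives were DESeq2 (version 1.42.0) with TMM factors, DESeq2 size factors, no filter, 1 fit of all groups, limma (version 3.58.1) on log2(TPM + 1), a term for pools with *Xist* above 1 CPM, WT CTAL replicate 1 counted as cKO, and leaving out each pool.

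Named are members that passed any test, the 10 with the highest TPM, *Slc25a34*, 5 relatives, and passing genes of 4 other lists; 1 of these is not reported here. Members and lists were chosen with earlier results of these data known. Annotation was GENCODE M21 on GRCm38, and flanking sequences came from RefSeq on GRCm38.p6. p-values measure the spread between animals.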

Additional observations from a re-analysis of the deposited data

Results flagged for a closer look

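In 60 groups of 5 pools of the named genes, the highest and the lowest pool were compared with the rest by Dixon's criterion, which chance meets in about 1 of 20 groups, and 2 groups met it. *Slc25a39*, the glutathione carrier, had 373 CPM in WT CTAL replicate 3, whereas the other 4 pools had 290 to 314 CPM. This pool had the lowest total count, 10824299. *Slc25a11*, the oxoglutarate/malate carrier, had 164 CPM in cKO CTAL replicate 9, whereas the other 4 pools had 135 to 142 CPM. Among the named genes, the genotype effect differed between the segments for *Ucp2* by the interaction test of edgeR, with a log2 fold change that was 0.81 larger in MTAL than in CTAL (adjusted p 0.0314). This call was lost in 4 of 18 fits that left out a pool (adjusted p up to 0.0581), with limma on TPM (0.252), with WT CTAL replicate 1 counted as cKO (0.0582) and with a term for pools with *Xist* (0.0618). *Ucp2* was higher in 3 of 3 cKO MTAL pools than in any WT MTAL pool. The cause was not tested.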

How the results depend on the processing

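No paired analysis was possible because the groups share no replicate numbers. Over 35 results of single genes and 601 alternative values of them, 521 kept their side of the threshold, 70 lost the call and 10 gained it. Many of the 35 results had no call and could not lose one. The share of values that lost a call is therefore larger among the results with a call. No call turned its direction, whereas 5 values without a call, all of the interaction, changed sign, such as *Slc25a30* from 0.19 to -0.085 without cKO MTAL replicate 18. Shares of all genes that passed in the same fit are given in parentheses. The number of members that passed between cKO MTAL and WT MTAL was 4 (7.01%), and it was 10 in 1 fit of all groups (17%), 2 with limma on TPM (2.63%), and 1 to 3 when a pool was left out, with 1 without cKO MTAL replicate 18 (8.13%) and 2 without cKO MTAL replicate 16 (5.57%) or 20 (3.85%) or WT MTAL replicate 15 (4.23%) or 19 (4.59%). Between cKO CTAL and WT CTAL it was 2 (1.22%), and 5 with DESeq2 (3.08%) and 1 to 2 when a pool was left out, with 1 without cKO CTAL replicate 21 (0.713%), WT CTAL replicate 10 (0.647%) or WT CTAL replicate 22 (0.801%). Between WT MTAL and WT CTAL it was 3 (6.87%), and 5 with DESeq2 (9.17%), 5 in 1 fit of all groups (6.83%), and 3 to 6 when a pool was left out, with 6 without WT MTAL replicate 11 (6.78%). Between cKO MTAL and cKO CTAL it was 2 (1.75%), and 4 with DESeq2 (6.82%), 4 in 1 fit of all groups (5.47%), 0 with limma (0.565%), 5 with a term for pools with *Xist* (5.45%), and 0 to 3 when a pool was left out, with 0 without cKO MTAL replicate 16 (0.931%) and 3 without cKO MTAL replicate 18. For the count of 3 without cKO MTAL replicate 18, the share of all genes is not given here. The interaction gave 0 members under each alternative. The cause of these changes was not tested. For *Slc25a34* in MTAL the adjusted p was 0.159 with the term for *Xist*, and for *Ucp2* in CTAL it was 0.164 with WT CTAL replicate 1 counted as cKO. In TPM, the median log2 ratio of all tested genes was 0.21 for cKO MTAL against WT MTAL and 0.14 for cKO CTAL against WT CTAL, so that values in TPM are relative to these shifts. With 3 against 5 pools, an exact Mann-Whitney test of 1 gene gives p = 0.0357 at the lowest.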

Other observations

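Some low members were high in a few pools only. The pyrimidine nucleotide carrier *Slc25a33* had 45.1 CPM in WT MTAL replicate 15 and 22.4 CPM in WT MTAL replicate 13, against 7.24 to 11.3 CPM in the other 3 pools of WT MTAL and 2.74 to 12.8 CPM in the pools of CTAL. The calcium-dependent ATP-Mg/phosphate carrier *Slc25a24* had 17.2 CPM in cKO MTAL replicate 18 and 14.5 CPM in cKO CTAL replicate 2, against 2.65 to 7.92 CPM in the other 16 pools. Proximal tubule markers summed to 379 and 323 CPM in these 2 pools, the highest sums of the 18 pools, and their part in these values was not tested. Both genes were named after their values were seen.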
